A study of Homo sapiens with 18 samples.

Results

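The genes described here belong to enzyme families known for taking acetyl and methyl groups off histones, though some members act on other substrates. They are the histone deacetylases (HDAC1 to HDAC11), the sirtuins (SIRT1 to SIRT7) and the histone lysine demethylases (symbols opening with KDM). They were chosen by symbol, as KDM, HDAC or SIRT followed by a digit, leaving out pseudogenes and antisense genes. The rule found 36 genes among the 37292 listed in any of the 3 deposited tables, of which 11 are HDAC, 18 are KDM and 7 are SIRT genes. The symbols alone picked the members, but the family was put forward with earlier results of these data in view. The counts and tests below therefore describe these genes and support nothing about the family as a whole. KDM5D is Y-linked, so it is counted as a member and its values are not given, which leaves 35 genes with values. SIRT4 and KDM5D are not listed in the SW480-LM3 table, so that table holds 34 members.

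RNA sequencing of 18 libraries from human cell lines, in 6 groups of 3, gave 3 comparisons, each within its own table and with no library shared between tables. SW480-LM3 cells came from SW480, a colorectal carcinoma line, after 3 rounds of selection by injection into the spleen, and SW480-P is the parental line. EV-XP-NID1-LX-2 cells are LX-2, a human hepatic stellate line, given vesicles containing NID1 (nidogen 1, a basement membrane glycoprotein) for 48 hours. EV-XP-LX-2, the control, was also exposed to vesicles for 48 hours. The labels do not explain the letters XP. LV5-NID1 cells are SW480 overexpressing NID1 and treated for 72 hours with GW4869, a neutral sphingomyelinase inhibitor used to lower vesicle release, and LV5 is their control. Whether the LV5 control had GW4869 too is not in the labels, so NID1 and the inhibitor cannot be told apart. Nor is it stated that replicates came from separate cultures, and p-values here measure only how these libraries spread, possibly for technical reasons.

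Histone deacetylases of classes I, II and IV use a zinc ion to remove acetyl groups from lysines, and those of class I work as the catalytic subunits of corepressor complexes such as NuRD, Sin3 and CoREST. Class IIa enzymes shuttle between nucleus and cytoplasm and repress MEF2 transcription factors, and class IIb HDAC6 acts mainly on cytoplasmic proteins such as tubulin. Sirtuins consume NAD in the reaction, which ties them to metabolism, and different members sit in the nucleus, the cytosol and the mitochondria. KDM1A and KDM1B oxidise methyl-lysine with FAD, while the other KDM enzymes share a JmjC fold that needs iron, oxygen and alpha-ketoglutarate. KDM2, KDM3, KDM4, KDM5 and KDM6 genes differ in the histone H3 lysine they act on. In stellate cells, deacetylases and demethylases are known for their part in the switch to a matrix-producing state.

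The NID1 transcript was 44.7 to 49.1 in SW480-LM3 and 0.352 to 0.582 in SW480-P in the signal unit of that table, and 348 to 379 TPM in LV5-NID1 against 0 to 0.04 TPM in LV5. EV-XP-NID1-LX-2 cells had 18.02 to 22.6 TPM of it, against 25.1 to 26.0 TPM in EV-XP-LX-2. Recovered reads were 15531517 to 16586016 per SW480-LM3 library and 15504205 to 18965163 per SW480-P library, and for the TPM tables the depth is unknown. SW480-LM3 stood apart from the other SW480 libraries. Over 14659 genes on a scale per transcript length, Spearman's rho between group means was 0.737 for SW480-LM3 and LV5 and 0.885 for SW480-P and LV5. The stellate control EV-XP-LX-2 had 0.731 with SW480-LM3, 0.770 with SW480-P and 0.810 with LV5. LV5 was thus nearer to it than to SW480-LM3, but LV5 and EV-XP-LX-2 share the TPM unit. SW480-LM3 and SW480-P, which share the signal unit, had 0.803. Over the 34 members rho was 0.646 for SW480-LM3 and LV5 and 0.824 for SW480-P and LV5. These points share libraries, depth and base composition within a group. Colon epithelial markers summed to 13175 to 13888 in SW480-LM3 against 3522 to 3790 in SW480-P (6 of 7 tested higher, with CDH1 at 148 in SW480-LM3 and 1.67 in SW480-P). Stellate and mesenchymal markers summed to 685 to 729 in SW480-LM3 against 552 to 578 in SW480-P. Most of both sums was VIM. Of the 11 genes on this list 7 are in the table, and of 6 tested 4 were higher and 0 lower. LUM was at 18.1 in SW480-LM3 and listed at 0 in SW480-P. PDGFRB and ACTA2, low in both groups, had lower means in SW480-LM3 than in SW480-P. The hepatocyte marker SERPINA1 was at 95.9 in SW480-LM3 and 51.5 in SW480-P. The part of these markers in the results below was not tested. Whether selection changed the cells or these libraries came from other cells cannot be told apart. In LV5 and LV5-NID1, 4 of the 10 colon epithelial markers, CDH1, VIL1, CDX1 and CDX2, were under 1 TPM in every library. The labels call these cells colon cancer cells. Others of the list were expressed, with KRT8 at 411 TPM in LV5-NID1 and 780 TPM in LV5. Means of KRT18 and EPCAM were also above 1 TPM in both groups. In LX-2, 6 of the 8 colon epithelial markers in that table, EPCAM and CDH1 among them, were under 1 TPM in every library. KRT8 and KRT18 were expressed, with KRT8 at 35.4 TPM in EV-XP-NID1-LX-2 and 54.8 TPM in EV-XP-LX-2. The stellate and mesenchymal markers summed to 1714 to 2023 TPM in EV-XP-NID1-LX-2 and 2408 to 2587 TPM in EV-XP-LX-2.

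The first comparison asks how the selected SW480-LM3 cells differ from the parental SW480-P. Transcripts of most members were more abundant in SW480-LM3. Of the 34 members, 31 were called by limma (adjusted p under 0.05 over all genes), 29 higher and 2 lower. Among all genes tested 87.8% were called, 43.9% higher and 43.9% lower, so the number called is near the background and the direction is where the members leaned. Their median log2 change was 0.84, beside -0.0041 over all genes. All 17 KDM genes rose, as did 8 of 11 HDAC genes and 4 of 6 SIRT genes, although KDM2B, KDM5B and HDAC7 turned negative once trends with GC content and length were removed. SIRT1 and HDAC5 fell. HDAC3, HDAC8 and SIRT2 did not pass the test. By at least 1 on the log2 scale, 15 members were higher and none lower, against 45.4% of all genes (23.9% higher). Libraries of SW480-LM3 and SW480-P did not overlap in 29 of 34 members, 28 higher and 1 lower, beside 87.6% of all genes (43.8% higher and 43.8% lower).

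**Figure D1:**
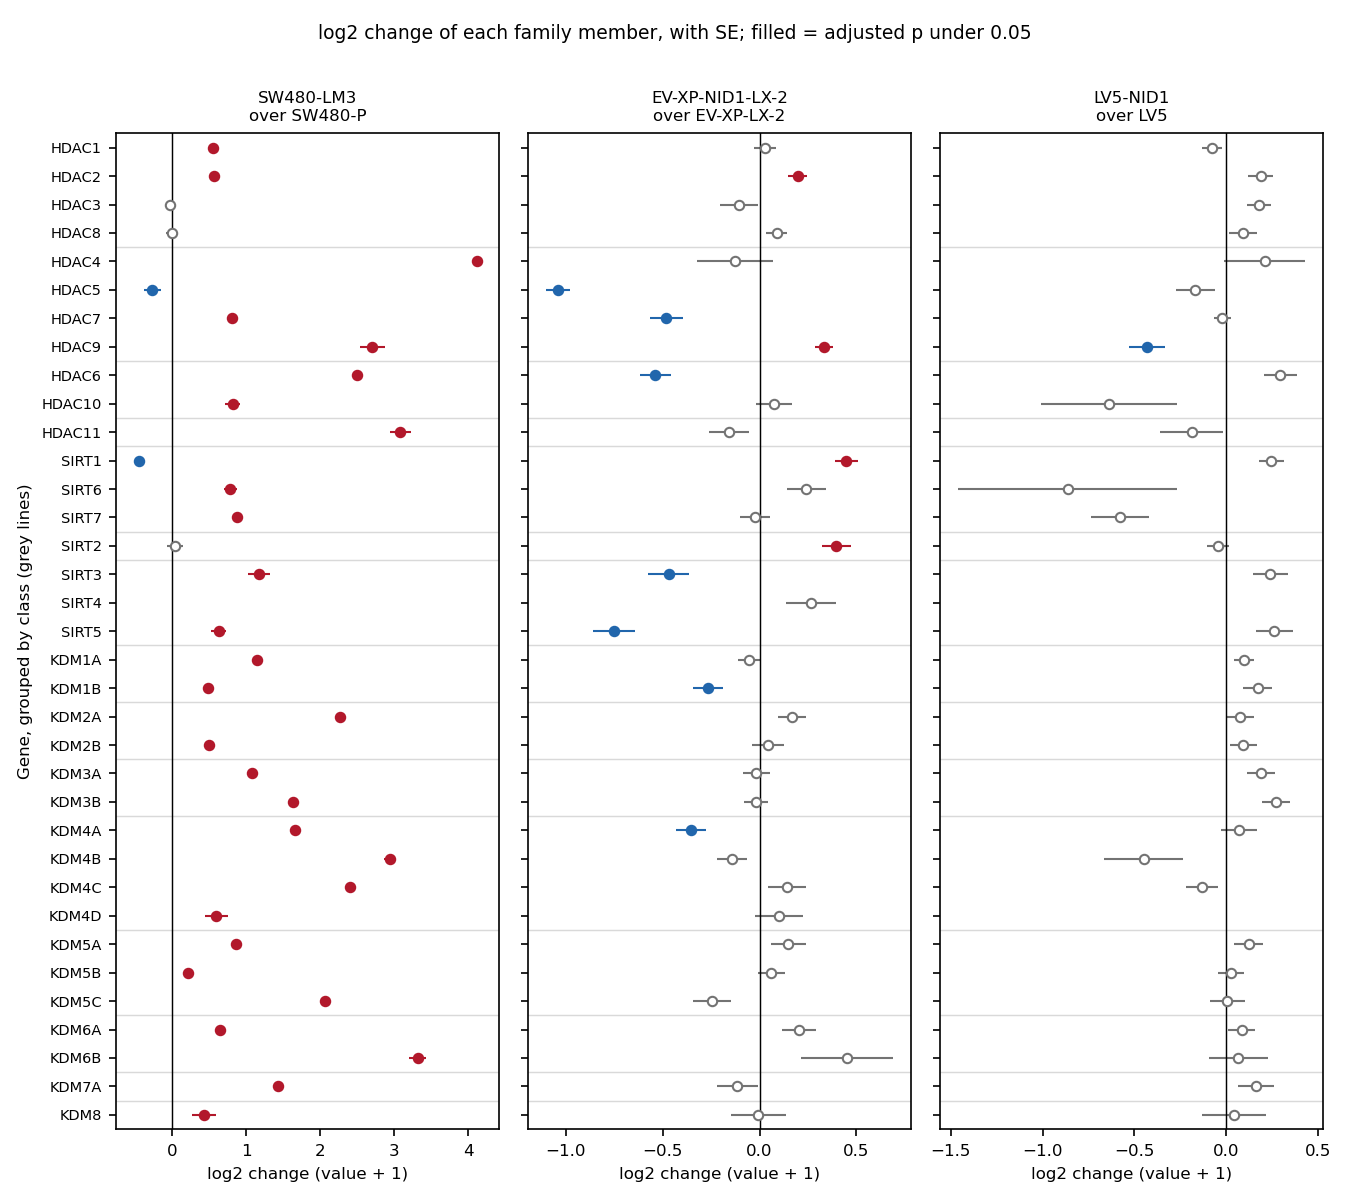
Each point is the limma log2 change of 1 gene on log2(value + 1) with its SE, in 3 panels with their own horizontal scales: SW480-LM3 over SW480-P, EV-XP-NID1-LX-2 over EV-XP-LX-2 and LV5-NID1 over LV5 (n = 3 libraries a group). Filled points passed an adjusted p of 0.05; 29 members lie to the right of 0 and passed in the first panel, 4 in the second and none in the third.

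Class IIa held the largest rise of the family in SW480-LM3 and 1 of its 2 falls. HDAC4 (chr2:239048168-239401654, minus strand), a MEF2 repressor, had signals of 264, 283 and 271 in SW480-LM3 libraries, against 15.0, 15.1 and 14.0 in SW480-P libraries. Every SW480-LM3 library was thus far above every SW480-P library, 18.6-fold by means, with a log2 change of 4.13 (SE 0.052, adjusted p = 4e-17). HDAC9, another MEF2 repressor, was at 8.43, 9.54 and 10.7 in SW480-LM3, from 145, 163 and 198 reads. In SW480-P it was near 0, at 0.285, 0.990 and 0.634 from 4, 17 and 9 reads, so its 15.0-fold ratio rests on few reads (log2 change 2.71, adjusted p = 7.96e-10). HDAC7, prominent in endothelial and thymic cells, rose 1.78-fold to 58.6 ± 5.92, against 32.9 ± 2.12 in SW480-P (SD, n = 3). HDAC5 (chr17:44076746-44123702, minus strand), the remaining member of the class, gave 10.2, 12.4 and 14.6 in SW480-LM3 and 16.0, 14.3 and 14.8 in SW480-P. Those ranges overlap, and its fall of 0.27 on the log2 scale passed the test narrowly (adjusted p = 0.0458) and in 8 of 17 alternative settings. The size of the HDAC5 fall depended on the setting, with log2 changes of -1.32 to -0.00086 and adjusted p of 2.06e-08 to 0.995 over all alternatives.

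The make-up of class IIa differed too. On signal divided by the length of the longest annotated transcript, HDAC4 made up 63.3% ± 1.07 of the class in SW480-LM3 and 13.0% ± 0.267 in SW480-P (SD, n = 3). HDAC7 made up 29.8% ± 1.70 in SW480-LM3 and 63.9% ± 1.02 in SW480-P. HDAC5 held 4.87% ± 0.858 in SW480-LM3 and 22.5% ± 1.23 in SW480-P. The shares depend on which transcript length is used, whereas the ratio between groups for 1 gene does not.

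Class I, the deacetylase class with the highest summed level per length, rose less or did not pass. HDAC1 rose 1.46-fold to 262 ± 6.20 in SW480-LM3, against 179 ± 7.04 in SW480-P, and its close paralog HDAC2 rose 1.48-fold to 329 ± 5.09 in SW480-LM3, against 222 ± 10.7 in SW480-P. Their ratio per length was 0.270 ± 0.0027 in SW480-LM3 and 0.267 ± 0.0167 in SW480-P. HDAC3, the catalytic subunit of the NCoR and SMRT complexes, was at 80.7 ± 4.97 in SW480-LM3 and 82.7 ± 4.34 in SW480-P. HDAC8, an enzyme that acts on cohesin, was at 32.7 ± 1.13 in SW480-LM3 and 32.9 ± 3.87 in SW480-P. In class IIb, HDAC6, the tubulin deacetylase, stood at 81.1, 89.9 and 88.7 in SW480-LM3 and 14.3, 15.5 and 13.6 in SW480-P (log2 change 2.50, adjusted p = 8.06e-14), without overlap. HDAC10, a polyamine deacetylase, rose 1.86-fold, a call lost with GC and length trends removed (log2 change 0.82 as reported and 0.088 without the trends). HDAC11 (chr3:13479724-13506424, plus strand), the single class IV enzyme and a remover of fatty acyl groups, had 28.0, 24.9 and 25.3 in SW480-LM3 and 1.78, 1.92 and 2.96 in SW480-P (log2 change 3.09, adjusted p = 1.94e-11). Part of the exonic sequence of HDAC11 (9.62%) is shared with the antisense gene HDAC11-AS1. Whether the counting used strand is not given in the sources used here.

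Among the demethylases the largest rise belonged to KDM6B (chr17:7839904-7854796, plus strand), which removes methyl groups from H3K27, the Polycomb mark. Its signals were 36.7, 39.3 and 38.9 in SW480-LM3 libraries and 2.49, 3.67 and 2.75 in SW480-P libraries. The groups were 12.9-fold apart by means and did not overlap (log2 change 3.32, SE 0.118, adjusted p = 1.29e-12). Its X-linked relative KDM6A rose 1.60-fold to 34.3 ± 1.097 in SW480-LM3, against 21.5 ± 0.793 in SW480-P. Per length, the ratio of KDM6B to KDM6A was 0.984 ± 0.00925 in SW480-LM3 and 0.121 ± 0.0206 in SW480-P.

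The KDM4 genes, which act on H3K9 and H3K36, all rose. KDM4B stood at 80.2, 79.2 and 80.0 in SW480-LM3 and 10.2, 10.3 and 8.25 in SW480-P (log2 change 2.94, adjusted p = 8.73e-14). KDM4C followed with 83.4, 80.7 and 83.2 in SW480-LM3 and 14.3, 15.0 and 14.9 in SW480-P (log2 change 2.41). For KDM4A the values were 52.1, 57.9 and 52.3 in SW480-LM3 and 15.4, 16.1 and 17.7 in SW480-P (log2 change 1.66), but 46.4% of its exonic bases are shared with another annotated gene on the same strand. KDM4D, low in both groups, averaged 2.56 ± 0.557 in SW480-LM3 and 1.36 ± 0.259 in SW480-P.

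Demethylases of the other groups rose as well. The H3K36 demethylase KDM2A gave 193, 195 and 195 in SW480-LM3 and 42.4, 38.4 and 38.6 in SW480-P (log2 change 2.26). KDM5C, an X-linked H3K4 demethylase, gave 205, 207 and 207 in SW480-LM3 and 50.6, 44.2 and 50.9 in SW480-P (log2 change 2.07). The ratio of KDM5C to KDM5A per length was 3.75 ± 0.187 in SW480-LM3 and 1.62 ± 0.144 in SW480-P. KDM3B, which acts on H3K9, had 111, 111 and 111 in SW480-LM3 and 39.1, 33.7 and 33.0 in SW480-P (log2 change 1.63). KDM7A, listed under its older symbol JHDM1D, had 80.0, 83.9 and 85.4 in SW480-LM3 and 28.97, 30.6 and 30.7 in SW480-P (log2 change 1.44). In none of these 4 genes did the groups overlap. The FAD-dependent KDM1A, the most abundant demethylase per length, rose 2.21-fold to 352 ± 3.75 in SW480-LM3, against 159 ± 1.59 in SW480-P. KDM1B, KDM2B, KDM3A and KDM5A rose by 0.49 to 1.08 on the log2 scale, and KDM5B by 0.21. KDM8, low in both groups, had 2.67, 2.40 and 2.06 in SW480-LM3 and 1.35, 1.17 and 2.12 in SW480-P. Its libraries overlap, and its call (log2 change 0.42, adjusted p = 0.0243) held in 9 of 16 alternatives. It was lost without SW480-LM3 replicate 1 or 2, without SW480-P replicate 1 or 2, and with edgeR and DESeq2, with adjusted p of 0.0025 to 0.865 over all alternatives.

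Sirtuins were split. SIRT1 (chr10:67884669-67918390, plus strand), the nuclear deacetylase best known from metabolic control, had 27.9, 26.9 and 25.1 in SW480-LM3 and 36.02, 35.9 and 38.3 in SW480-P. It was the only member both called lower and free of overlap (log2 change -0.45, SE 0.069, adjusted p = 2.07e-05). The other nuclear members rose, SIRT7 by 1.86-fold to 55.9 ± 3.91 in SW480-LM3, against 30.0 ± 1.01 in SW480-P, and SIRT6 by 1.77-fold to 26.4 ± 1.98 in SW480-LM3, against 14.9 ± 0.812 in SW480-P. Mitochondrial SIRT3 rose 2.41-fold to 16.6 ± 2.05 in SW480-LM3, against 6.88 ± 1.79 in SW480-P, and SIRT5, the desuccinylase, 1.60-fold to 17.7 ± 1.49 in SW480-LM3, against 11.1 ± 0.755 in SW480-P. Cytosolic SIRT2 was at 19.97 ± 2.00 in SW480-LM3 and 19.5 ± 2.64 in SW480-P.

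**Figure D2:**
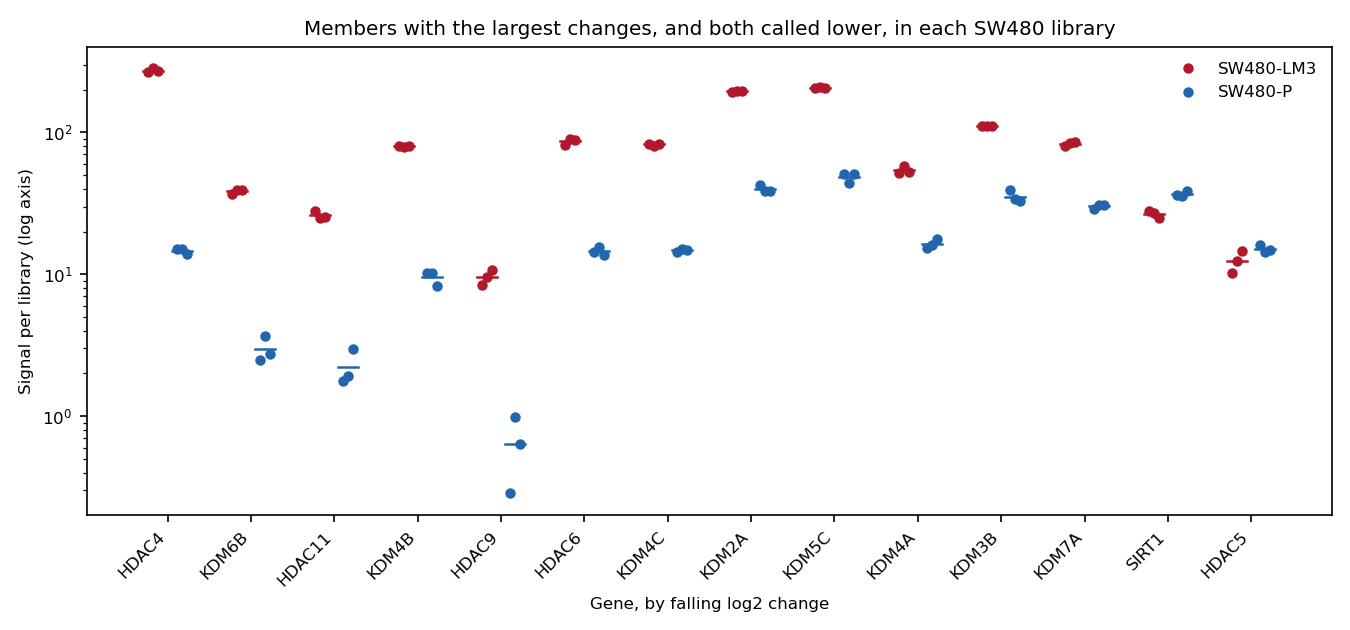
Signal of the 12 called members with the largest change, and of SIRT1 and HDAC5, in each SW480-LM3 (left of each pair) and SW480-P library on a log axis; dots are libraries and bars are means of 3. HDAC4 lies between 264 and 283 in SW480-LM3 and between 14.0 and 15.1 in SW480-P, while the HDAC5 groups overlap.

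Base composition and transcript length moved with this comparison. Over 14170 genes the log2 change had a Spearman rho of 0.276 with transcript GC content and 0.214 with length, and members were longer than the median gene (4564.5 against 3252.5 bases) and richer in GC (51.2% against 49.1%). With both trends removed from each library, 24 members were higher and 4 lower. HDAC4 then changed by 3.12 and KDM6B by 2.13, while HDAC7 (-0.14), KDM2B (-0.31) and KDM5B (-0.076) turned negative, so the rise of these 3 depends on the setting. SIRT1 (adjusted p = 0.0558), HDAC10 (log2 change 0.088, adjusted p = 0.437) and KDM8 (0.031, adjusted p = 0.865) then missed the threshold in the same limma fit. Scaling to library totals put the median gene at 0.26, and HDAC3 (0.25) and HDAC8 (0.28) lay near that shift.

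Enzymes and partners around the family were counted from lists, to be read beside the 87.8% of all genes called, 43.9% each way. Of 10 acetyltransferases, the opposing enzymes, 7 rose and 2 fell, with a median log2 change of 0.999. EP300, a broad coactivator, averaged 115 ± 7.09 in SW480-LM3 and 16.0 ± 1.31 in SW480-P. Of 28 histone methyltransferases 20 rose and 4 fell (85.7% called), and of 32 corepressor subunits 22 rose and 8 fell (93.8% called), so the shares called are near that of all genes. RCOR2, a CoREST scaffold for KDM1A, was at 22.7 ± 1.03 in SW480-LM3 and 0.857 ± 0.685 in SW480-P, whereas HMG20B of the same complex was at 52.2 ± 2.16 in SW480-LM3 and 338 ± 5.51 in SW480-P. Of 13 genes of NAD supply and use 7 rose and 6 fell. NNMT, which consumes the NAD precursor nicotinamide, was at 0.057 ± 0.00265 in SW480-LM3 and 24.5 ± 0.807 in SW480-P.

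HDAC9 was called in every comparison, with LV5-NID1 and LV5 at 1.41 TPM or less, while SIRT1 went against most members in SW480-LM3. Promoter windows are shown for both, and for the 4 largest log2 rises in SW480-LM3. They come from RefSeq on GRCh38.p14, 250 bases before to 50 after the first listed start, 5′ to 3′ on the gene's strand. Of 36 members 34 matched the table, 24 with 1 listed start and 10 with several; HDAC5 and SIRT7 did not match. Capitals mark the GC box, GGGCGG or CCGCCC on the other strand.
HDAC4: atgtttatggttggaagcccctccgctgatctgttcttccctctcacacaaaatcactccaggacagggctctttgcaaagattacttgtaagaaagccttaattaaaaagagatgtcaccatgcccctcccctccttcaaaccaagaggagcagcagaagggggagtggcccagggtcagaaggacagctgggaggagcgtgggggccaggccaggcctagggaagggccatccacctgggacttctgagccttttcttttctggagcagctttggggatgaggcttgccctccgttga
KDM6B: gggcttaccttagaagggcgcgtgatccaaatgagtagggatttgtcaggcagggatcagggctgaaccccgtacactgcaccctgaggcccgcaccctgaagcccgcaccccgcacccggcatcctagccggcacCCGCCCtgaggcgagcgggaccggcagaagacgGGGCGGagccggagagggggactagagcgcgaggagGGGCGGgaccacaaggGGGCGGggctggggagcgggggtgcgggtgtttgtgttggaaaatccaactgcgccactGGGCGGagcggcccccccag
HDAC11: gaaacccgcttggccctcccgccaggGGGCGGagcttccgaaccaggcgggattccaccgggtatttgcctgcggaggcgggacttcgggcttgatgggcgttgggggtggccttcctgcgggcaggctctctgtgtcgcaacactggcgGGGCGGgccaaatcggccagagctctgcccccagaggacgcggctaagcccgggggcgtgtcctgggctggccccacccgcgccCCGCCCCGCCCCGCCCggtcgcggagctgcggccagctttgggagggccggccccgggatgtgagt
KDM4B: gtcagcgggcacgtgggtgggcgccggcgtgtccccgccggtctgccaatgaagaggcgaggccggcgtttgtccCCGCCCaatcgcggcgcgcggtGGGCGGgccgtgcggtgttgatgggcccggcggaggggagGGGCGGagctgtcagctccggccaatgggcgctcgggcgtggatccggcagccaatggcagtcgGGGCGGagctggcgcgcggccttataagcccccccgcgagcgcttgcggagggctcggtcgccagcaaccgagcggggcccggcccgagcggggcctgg
HDAC9: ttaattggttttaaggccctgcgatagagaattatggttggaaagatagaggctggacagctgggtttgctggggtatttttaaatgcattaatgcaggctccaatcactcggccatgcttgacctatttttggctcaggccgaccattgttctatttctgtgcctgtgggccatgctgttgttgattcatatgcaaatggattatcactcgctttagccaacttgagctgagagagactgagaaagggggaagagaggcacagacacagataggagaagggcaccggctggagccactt
SIRT1: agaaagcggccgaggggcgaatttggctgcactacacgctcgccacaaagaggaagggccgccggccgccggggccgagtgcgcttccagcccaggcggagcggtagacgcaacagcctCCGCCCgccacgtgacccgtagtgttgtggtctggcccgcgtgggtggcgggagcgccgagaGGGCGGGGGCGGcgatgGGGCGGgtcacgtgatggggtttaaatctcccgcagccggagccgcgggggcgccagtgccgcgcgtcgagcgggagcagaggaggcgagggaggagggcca

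The HDAC4 window lies at chr2:239274732-239275031 (minus strand, 1 of 5 listed starts) and the HDAC9 window at chr7:18495499-18495798 (plus strand, 1 of 5). Those of KDM6B (chr17:7833967-7834266, 1 of 2 starts), HDAC11 (chr3:13480056-13480355), KDM4B (chr19:4968863-4969162) and SIRT1 (chr10:67884406-67884705) are on the plus strand. The HDAC4 and HDAC9 windows lie inside the annotated genes (chr2:239048168-239401654 and chr7:18086949-19002416), far from the outermost 5′ end. They are internal starts. The KDM6B window lies upstream of its annotated gene (chr17:7839904-7854796) and does not reach it. The other listed starts of these genes were not examined. The HDAC4 window held no GC box and 3 CpG, that of HDAC9 no GC box and 5 CpG. The others held 4 or 5 GC boxes and 24 to 43 CpG. The HDAC9 window had the lowest GC content of any matched window at 47.3%. Over the family, 21 of 34 windows (61.8%) held a GC box, against 44.6% of 27305 genes. A CCAAT box (CCAAT or ATTGG) was in 13 of 34 (38.2%, against 35.7%) and the hypoxia response core (ACGTG or CACGT) in 10 of 34 (29.4%, against 21.6%). No window held TATAAA or TTTATA, found in 3264 of the 27305. The median window had 28.5 CpG and 64.7% GC, beside 14 CpG and 58.3% GC over all genes. Matches of 1 motif could overlap, as in HDAC11, a GC box overlaps a CCAAT box in KDM4B, and CACGTG counts on both strands. These matches are descriptions of the letters, not of binding.

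The second comparison asks what NID1 vesicles did to stellate cells. Changes were small. Of 11 HDAC genes 2 were called higher and 3 lower, of 7 SIRT genes 2 higher and 2 lower, and of 17 KDM genes 0 higher and 2 lower. HDAC5, HDAC6 and HDAC7 fell with mitochondrial SIRT3 and SIRT5 and the demethylases KDM1B and KDM4A, while HDAC2, HDAC9, SIRT1 and SIRT2 rose. That is 11 of 35 members called, 4 higher and 7 lower, beside 42.3% of all genes (17.8% higher and 24.6% lower). Their median log2 change was -0.0077, beside -0.048 over all genes. Groups did not overlap in 18 members, 9 higher and 9 lower, beside 55.9% of all genes (23.4% higher and 32.5% lower). In a bulk sample, fewer cells of a type and less RNA per cell cannot be told apart.

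HDAC5 was the single member to change by 1 or more on the log2 scale, as 1.77% of all genes did (1.22% lower). It measured 10.7, 11.2 and 11.7 TPM in EV-XP-NID1-LX-2 libraries and 23.9, 24.2 and 24.2 TPM in EV-XP-LX-2 libraries, 2.15-fold lower and well apart (log2 change -1.04, SE 0.062, adjusted p = 0.000174). HDAC7 measured 28.4, 22.4 and 26.0 TPM in EV-XP-NID1-LX-2 against 35.6, 35.8 and 36.5 TPM in EV-XP-LX-2 (log2 change -0.48, adjusted p = 0.0045). HDAC9 went the other way within the same class, at 87.5, 83.0 and 84.2 TPM in EV-XP-NID1-LX-2 against 65.3, 69.3 and 66.8 TPM in EV-XP-LX-2 (log2 change 0.33, adjusted p = 0.00175). HDAC4 did not pass the test and its libraries overlapped, at 9.13 to 12.5 TPM in EV-XP-NID1-LX-2 and 9.28 to 16.3 TPM in EV-XP-LX-2.

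The summed class hardly differed, at 133 ± 6.74 TPM in EV-XP-NID1-LX-2 and 139 ± 5.79 TPM in EV-XP-LX-2 (SD, n = 3), while its make-up did. HDAC9 made up 64.1% ± 1.71 of it in EV-XP-NID1-LX-2 and 48.1% ± 0.546 in EV-XP-LX-2. HDAC5 made up 8.48% ± 0.685 in EV-XP-NID1-LX-2 and 17.3% ± 0.640 in EV-XP-LX-2. HDAC7 made up 19.3% ± 1.34 in EV-XP-NID1-LX-2 and 25.8% ± 1.07 in EV-XP-LX-2.

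**Figure D3:**
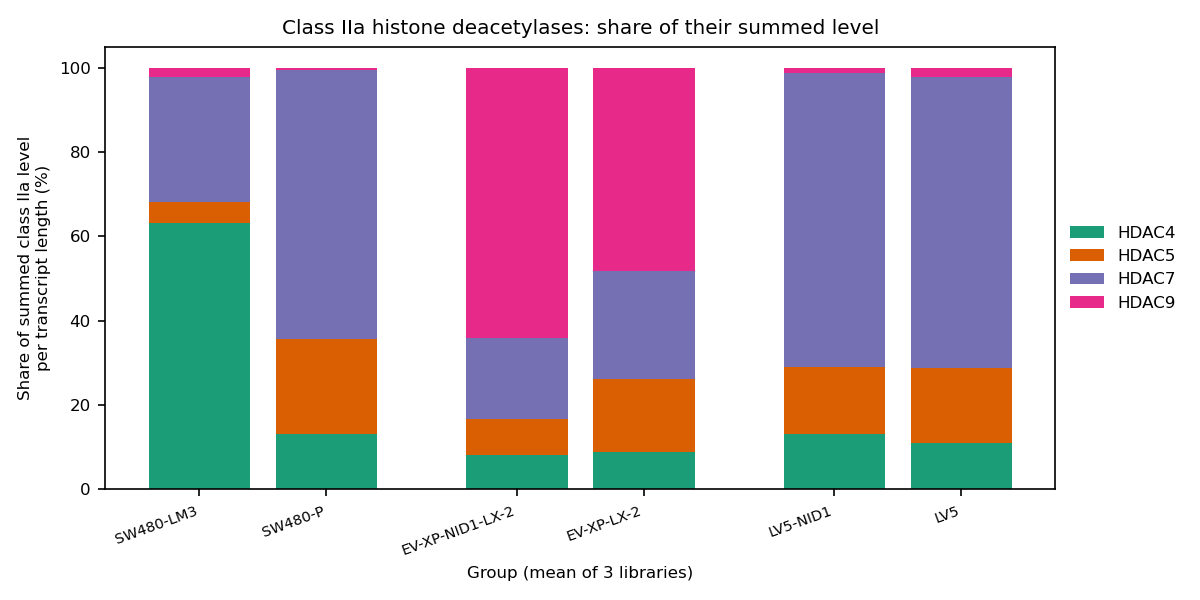
Mean share of HDAC4, HDAC5, HDAC7 and HDAC9 in their summed level per transcript length (signal per kb in the SW480-LM3 and SW480-P bars, TPM in the rest), 3 libraries a bar. HDAC4 fills 63.3% of the SW480-LM3 bar and 13.0% of the SW480-P bar, HDAC9 leads in both LX-2 groups, and HDAC7 leads in SW480-P, LV5-NID1 and LV5.

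HDAC6 gave 43.6, 37.7 and 41.3 TPM in EV-XP-NID1-LX-2 and 54.7, 60.5 and 64.3 TPM in EV-XP-LX-2 (log2 change -0.54, adjusted p = 0.00204). Of class I, HDAC2 rose slightly, with 307, 306 and 324 TPM in EV-XP-NID1-LX-2 and 281, 279 and 258 TPM in EV-XP-LX-2 (log2 change 0.20, adjusted p = 0.0182, called in 12 of 16 alternatives). HDAC1, HDAC3 and HDAC8 did not pass, with log2 changes of -0.10 to 0.09, nor did HDAC10 (0.08) and HDAC11 (-0.16).

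Sirtuins went both ways, and 4 of 7 passed. SIRT5 (chr6:13574529-13615158, plus strand), which strips succinyl groups in mitochondria, had 4.23, 4.68 and 5.03 TPM in EV-XP-NID1-LX-2 and 7.72, 8.21 and 9.61 TPM in EV-XP-LX-2 (log2 change -0.75, adjusted p = 0.00188). An antisense gene shares 17.8% of its exonic bases. SIRT3, the main mitochondrial deacetylase, had 10.8, 9.67 and 8.39 TPM in EV-XP-NID1-LX-2 and 12.6, 13.7 and 14.7 TPM in EV-XP-LX-2 (log2 change -0.47, adjusted p = 0.0105). SIRT4, the least abundant of them, was at 3.41 ± 0.290 TPM in EV-XP-NID1-LX-2 and 2.69 ± 0.451 TPM in EV-XP-LX-2 and did not pass.

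Nuclear SIRT1 had 43.9, 42.1 and 43.6 TPM in EV-XP-NID1-LX-2 and 30.7, 33.3 and 30.2 TPM in EV-XP-LX-2 (log2 change 0.45, adjusted p = 0.00123). Cytosolic SIRT2 had 47.3, 39.9 and 44.3 TPM in EV-XP-NID1-LX-2 and 32.7, 31.4 and 34.9 TPM in EV-XP-LX-2 (log2 change 0.40, adjusted p = 0.00581). In both genes all libraries given NID1 vesicles lay above all control libraries. SIRT6 (0.24) and SIRT7 (-0.02) did not pass. Summed, the mitochondrial sirtuins came to 17.7 ± 1.095 TPM in EV-XP-NID1-LX-2 and 24.9 ± 2.45 TPM in EV-XP-LX-2.

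**Figure D4:**
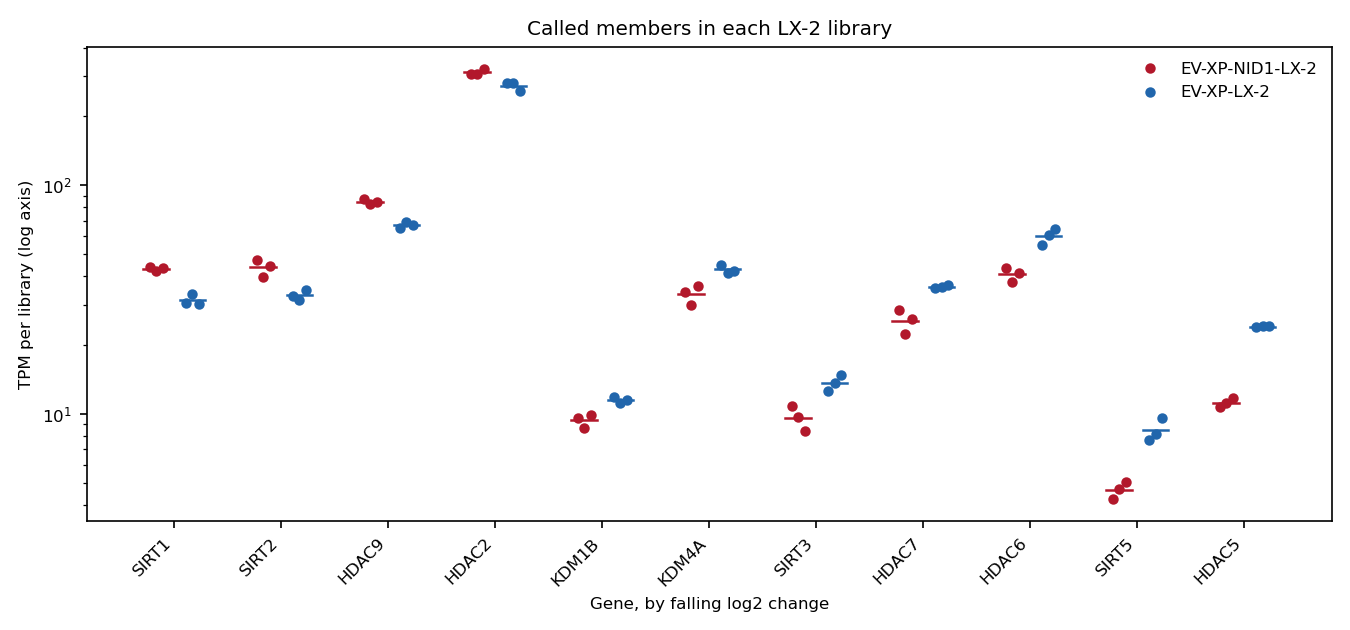
TPM of the 11 called members in each EV-XP-NID1-LX-2 (left of each pair) and EV-XP-LX-2 library on a log axis, ordered by falling log2 change; dots are libraries and bars are means of 3. SIRT1, at 42.1 to 43.9 TPM in EV-XP-NID1-LX-2 and 30.2 to 33.3 TPM in EV-XP-LX-2, is at the left end, and HDAC5, at 10.7 to 11.7 TPM in EV-XP-NID1-LX-2 and 23.9 to 24.2 TPM in EV-XP-LX-2, at the right end.

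Among the demethylases 2 of 17 with values passed, both lower. KDM4A had 34.0, 30.1 and 36.3 TPM in EV-XP-NID1-LX-2 and 45.01, 41.5 and 42.4 TPM in EV-XP-LX-2 (log2 change -0.35, adjusted p = 0.00943). KDM1B, a demethylase of H3K4, had 9.60, 8.71 and 9.90 TPM in EV-XP-NID1-LX-2 and 11.8, 11.1 and 11.5 TPM in EV-XP-LX-2 (log2 change -0.26, adjusted p = 0.0288, called in 10 of 16 alternatives). The other 15 KDM genes with values did not pass, with log2 changes of -0.24 for KDM5C to 0.45 for KDM6B. KDM6B varied within each group, at 18.9 to 28.2 TPM in EV-XP-NID1-LX-2 and 13.9 to 25.3 TPM in EV-XP-LX-2.

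The direction of the weaker changes depended on the scaling. Of all called genes 41.9% were higher, against 53.4% with GC and length trends removed, where 10 members were higher and 7 lower. Without EV-XP-NID1-LX-2 replicate 2, 8 were higher and 8 lower. The 9 called members other than KDM1B and HDAC2 were called in all 16 alternatives. Over 15023 genes the log2 change had a Spearman rho of -0.228 with transcript GC content. HDAC5, HDAC6, HDAC7 and SIRT3, which fell, have 57.5% to 62.3% GC, and HDAC2, HDAC9 and SIRT1, which rose, 38.2% to 40.5%. Against that trend, SIRT2 (59.0%) rose and KDM1B (41.6%) and SIRT5 (48.2%) fell, while KDM4A (50.7%) fell too. With GC and length trends removed, no called member lost its call.

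Partner genes split likewise: 2 of 10 acetyltransferases rose and 3 fell, 9 of 32 corepressor subunits rose and 8 fell, and 2 of 13 NAD genes rose and 4 fell, beside 17.8% and 24.6% of all genes. NMNAT2, an NAD-producing enzyme, was at 9.15 ± 0.386 TPM in EV-XP-NID1-LX-2 and 18.1 ± 2.04 TPM in EV-XP-LX-2. JMJD6, a JmjC protein outside the KDM symbols, was at 100.3 ± 5.48 TPM in EV-XP-NID1-LX-2 and 54.7 ± 2.92 TPM in EV-XP-LX-2. Of 14 hypoxia-inducible genes 1 rose and 11 fell. The stellate markers given above (0 of 9 higher and 4 lower) and CD68 (18.6 ± 2.69 TPM in EV-XP-NID1-LX-2 and 43.7 ± 1.99 TPM in EV-XP-LX-2) moved with these groups, and their part in the results was not tested.

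The third comparison sets SW480 cells with NID1 and GW4869 against LV5. HDAC9 alone passed, and fell, in a family where 33 genes were tested and 16.6% of all genes were called (7.27% higher and 9.32% lower). KDM4D and SIRT4 were below the filter of 1 TPM in 3 libraries. The members' median log2 change was 0.078, beside 0.006 over all genes, and groups did not overlap in 13 of 33, 11 higher and 2 lower, beside 43.3% of all genes (21.7% higher and 21.6% lower). No member was called with a change of 1 or more, as 1.42% of all genes were (0.142% higher and 1.28% lower). Of all called genes 43.8% were higher, against 54.7% with quantile normalization.

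HDAC9 had 0.82, 0.83 and 0.65 TPM in LV5-NID1 libraries and 1.37, 1.41 and 1.36 TPM in LV5 libraries, 1.80-fold lower by means without overlap (log2 change -0.43, SE 0.099, adjusted p = 0.0355). The levels are close to the filter, and the call held in 6 of 15 alternatives and was lost without any 1 of the 6 libraries (adjusted p of 0.0139 to 0.116 over all alternatives). SIRT4, also near 0, had 0.75, 0.60 and 0.71 TPM in LV5-NID1 and 0.17, 0.44 and 0.49 TPM in LV5. KDM4D had 1.09, 0.66 and 0.87 TPM in LV5-NID1 and 0.61, 0.78 and 0.63 TPM in LV5, with overlap.

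Several members came close to the threshold without passing it. SIRT1 was at 28.9, 28.9 and 32.2 TPM in LV5-NID1 and 24.7, 26.1 and 24.5 TPM in LV5 (log2 change 0.25, adjusted p = 0.0539). KDM3B was at 32.7, 31.9 and 37.7 TPM in LV5-NID1 and 28.8, 28.1 and 27.1 TPM in LV5 (0.27, adjusted p = 0.0633). HDAC6 was at 31.7, 32.5 and 38.1 TPM in LV5-NID1 and 25.7, 27.7 and 29.2 TPM in LV5 (0.30, adjusted p = 0.0742). In all 3 every LV5-NID1 library lay above every LV5 library. SIRT7 lay below, at 17.6, 15.7 and 11.5 TPM in LV5-NID1 and 20.5, 24.9 and 22.1 TPM in LV5 (-0.58, adjusted p = 0.0584).

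One library set several of these values. A deviation here is the log2 value in a library minus the mean of the other 2 libraries of its group. For LV5-NID1 replicate 3 the SD of this across genes was 0.529, against 0.281 to 0.389 in the other 5. Its deviation had a Spearman rho of -0.551 with transcript GC content over 14506 genes. The 2 members richest in GC, HDAC10 and SIRT6, dropped furthest in it, with deviations of -1.33 and -2.17. Not every GC-rich member did so: HDAC7 (62.3% GC) deviated by 0.026, HDAC5 (61.2%) by 0.011, SIRT2 (59.0%) by 0.074 and HDAC6 (57.7%) by 0.24. SIRT6 (transcript GC content 64.9%) had 20.9, 16.8 and 3.39 TPM in LV5-NID1 libraries 1 to 3 and 17.4, 24.0 and 21.4 TPM in LV5. HDAC10 (66.9%) had 10.5, 8.37 and 3.13 TPM in LV5-NID1 and 11.0, 11.1 and 10.4 TPM in LV5. KDM4B had 7.33, 7.64 and 4.48 TPM in LV5-NID1 and 10.7, 9.32 and 7.32 TPM in LV5. Without that library, KDM3B passed as higher and SIRT7 as lower, and HDAC9 did not pass. The log2 change between LV5-NID1 and LV5 had a Spearman rho of -0.371 with transcript GC content over 14506 genes. With GC and length trends removed, 6 members passed: SIRT1, KDM3B, KDM6B, SIRT3 and HDAC3 higher and HDAC9 lower.

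**Figure D5:**
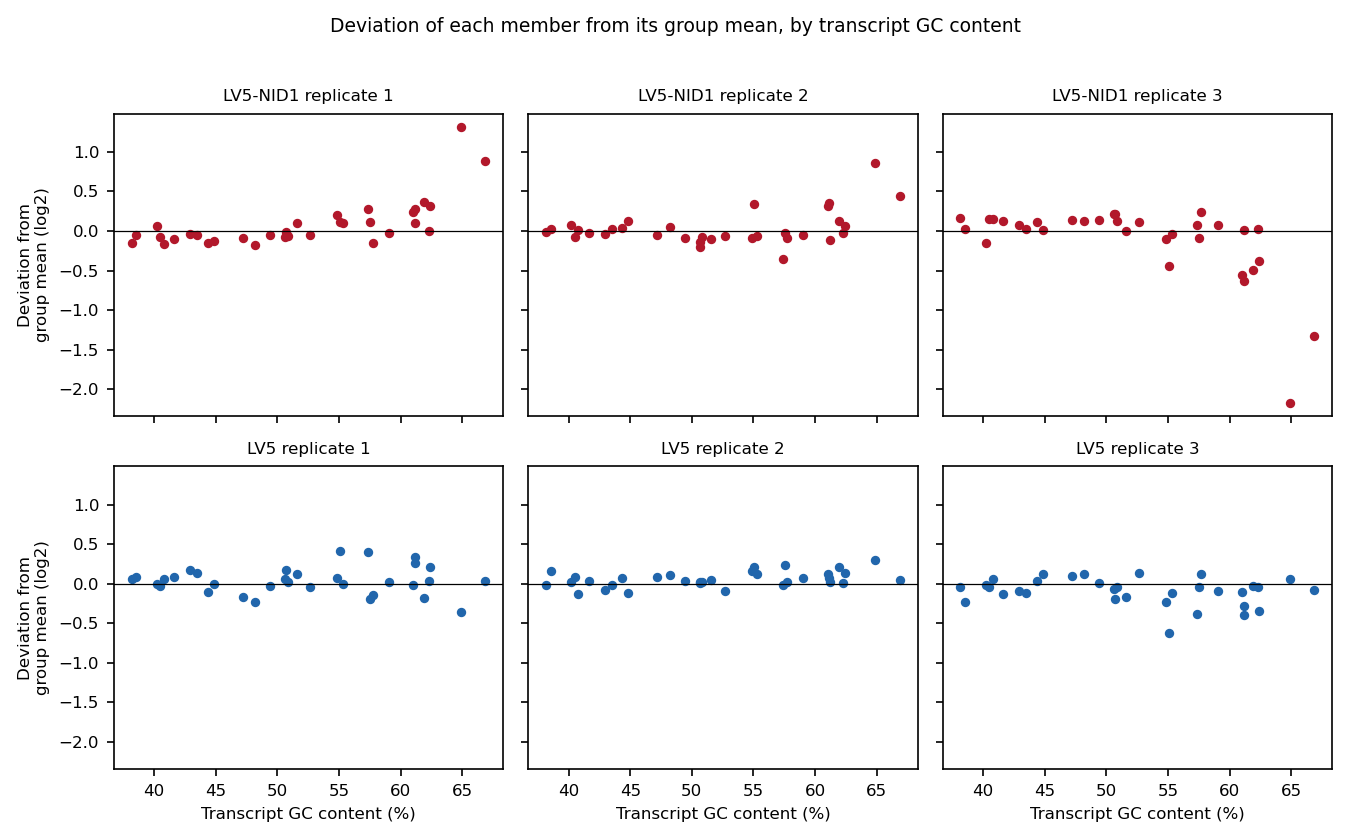
Deviation of each member (log2) against the GC content of its longest transcript (%), 1 panel a library, with LV5-NID1 in the upper row and LV5 in the lower. The deviation is from the mean of the other 2 libraries of the group, although the axis and title name the group mean. In LV5-NID1 replicate 3 the 2 most GC-rich members drop furthest, to -2.17 for SIRT6 and -1.33 for HDAC10, while HDAC7 and HDAC5 stay near 0.

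Abundant members differed little between LV5-NID1 and LV5. HDAC1 was at 137 ± 7.66 TPM in LV5-NID1 and 144 ± 2.22 TPM in LV5, and HDAC2 at 117 ± 8.80 TPM in LV5-NID1 and 103 ± 2.61 TPM in LV5. KDM1A was at 68.9 ± 3.77 TPM in LV5-NID1 and 64.3 ± 0.994 TPM in LV5. The 16 KDM genes tested had log2 changes of -0.45 to 0.27. None of the 9 class IIa partner genes tested (MEF2, 14-3-3 and CABIN1) passed, and of 31 corepressor subunits 2 fell and none rose, beside 16.6% of all genes called. HMG20B was among those that fell, at 162 ± 46.0 TPM in LV5-NID1 and 313 ± 12.1 TPM in LV5. Its LV5-NID1 libraries 1 to 3 had 196, 182 and 110 TPM, so replicate 3 was the lowest. Colon markers summed to 927 to 988 TPM in LV5-NID1 and 1633 to 1673 TPM in LV5. Most of both sums was KRT8 and KRT18. Of 4 colon markers tested, 1 was higher and 3 lower, and EPCAM was at 9.05 TPM in LV5-NID1 and 5.03 TPM in LV5. The part of these markers was not tested.

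Set side by side, HDAC9 was the only member called in all 3 comparisons, higher in SW480-LM3 and EV-XP-NID1-LX-2 and lower in LV5-NID1. Its LV5-NID1 call, at levels near the filter, was lost without any 1 of the 6 libraries. Its SW480-P level rests on 4 to 17 reads. Of the 31 members called in SW480-LM3 and the 11 called in EV-XP-NID1-LX-2, 10 were called in both, 3 of them the same way. Those higher in SW480-LM3 and lower in EV-XP-NID1-LX-2 were 6, HDAC6, HDAC7, KDM1B, KDM4A, SIRT3 and SIRT5, and SIRT1 went the opposite way. With 31 of 34 members called in SW480-LM3, 29 of them higher, most of this sharing and opposition follows from the counts in each comparison. In SW480-LM3, 87.8% of all genes were called. The share of all genes called in both comparisons was not computed, so nothing about the members is drawn from these counts. HDAC3, HDAC8 and SIRT4 were called in no comparison.

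Levels within a table put a class I gene, HDAC1 or HDAC2, first in each TPM group. HDAC2, HDAC1 and HDAC3 led in both LX-2 groups, at 312 ± 10.2, 150 ± 9.99 and 90.5 ± 12.3 TPM in EV-XP-NID1-LX-2. In LV5-NID1 and LV5 the order was HDAC1, HDAC2 and KDM1A. The lowest were KDM4D, KDM8 and SIRT4 in LX-2 and SIRT4, HDAC9 and KDM4D in LV5-NID1. By level HDAC9 ranked 4 of 35 in EV-XP-NID1-LX-2 and 34 of 35 in LV5-NID1. HDAC11 was at 29.02 ± 0.547 TPM in EV-XP-LX-2 and 2.32 ± 0.177 TPM in LV5. The tables were made separately, so levels across them are set side by side without a test.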

How the data were processed

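Poly(A) RNA of 2 human cell lines, in 18 libraries, was sequenced, and the authors deposited 3 gene tables. HISAT2 2.1.0 and Bowtie2 2.3.5 are named in the submitters' processing notes with no role, and for the counter, genome build and annotation a name is not given in the sources used here. The deposited signal of the SW480-LM3 and SW480-P table behaves as scaled reads: dividing by the step of each library left whole numbers, within 0.05 read, for 100% of values. The other tables hold TPM as deposited by the authors, summing to 1000000 per library within rounding.

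The members and the gene lists were chosen with earlier results of these data known. Each comparison was fitted with limma 3.58.1 (R 4.3.3), with a variance trend, on log2(value + 1) for genes reaching 1 in 3 or more of the 6 libraries. Calls needed an adjusted p (Benjamini-Hochberg, over all genes tested) under 0.05. Fold changes on this scale understate those of low genes, and ratios are of group means. The fit was tested on simulated data. Values are given per library for up to 12 called members with the largest log2 change and for members near 0 in 1 group, and by range for the rest, and for each list for the called genes with the largest change. Lengths and GC content come from the longest GENCODE v29 transcript (GRCh38), and gene coordinates from the same annotation, matched by Ensembl ID. KDM4E and KDM4F are not listed in the tables.

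Alternatives were quantile normalization, library-total or median-ratio scaling, rescaling without mitochondrial genes, other pseudocounts and filters, no variance trend, a size threshold, a replicate block, each library left out, edgeR 4.0.16 and DESeq2 1.42.0 on the recovered reads, and, chosen after seeing the data, removal of GC and length trends. Same-numbered replicates of unlike groups deviated together hardly at all (r of -0.047 to 0.063 across genes), so numbers were not read as pairs.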

Additional observations from a re-analysis of the deposited data

How the results depend on the processing

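Of the counts of members called, those for SW480-LM3 held within 1.5 times (28 to 33 called, 24 to 32 higher) in every alternative but a log2 change of at least 1, which left 15 called, all 15 higher and 0 lower. Its 2 lower members became 1 with a pseudocount of 0.1, without a variance trend, with library-total scaling and with DESeq2, 4 with GC and length trends removed, and 1 to 2 with a library left out. Removing the trends reversed HDAC7 (-0.14), KDM2B (-0.31), KDM5B (-0.076) and SIRT2 (-0.26), and library-total scaling reversed HDAC8 (0.28) and HDAC3 (0.25), which then passed the test (that scaling moves the median gene by 0.26; otherwise the cause was not tested). In EV-XP-NID1-LX-2 the 4 higher members became 9 with quantile normalization, 8 with median-ratio scaling, 10 with the trends removed (17 called, with SIRT7 reversed to 0.16) and 3 to 8 with a library left out. A log2 change of at least 1 left 1 called, 0 higher and 1 lower. In LV5-NID1 the 1 called member became 3 with quantile normalization (2 higher), 6 with the trends removed (5 higher), 0 without a low filter (0 lower), and 0 to 2 with a library left out (0 to 1 higher, 0 to 1 lower). A mean of at least 5 gave 1 higher and 0 lower, and a log2 change of at least 1 left 0 called and 0 lower. Over all genes, the 2572 called there became 1532 without a low filter, 890 with the block and 713 to 3325 with a library left out. With the replicate number as a block, 31 members were called in SW480-LM3 (29 higher, 2 lower), 9 in EV-XP-NID1-LX-2 (3 higher, 6 lower) and 0 in LV5-NID1 (0 higher, 0 lower), and not every library matched its own number best. Depth limits HDAC9 in SW480-P (4 to 17 reads) and is unknown for TPM.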
